A study of Schizosaccharomyces pombe with 9 samples.

Results

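The fission yeast Schizosaccharomyces pombe makes inositol pyrophosphates with Asp1, an enzyme that joins a kinase domain to a pyrophosphatase domain, and the asp1-D333A allele disables the kinase. Protein-coding transcripts of a strain with this allele were compared with those of wild type (WT). The genes were those whose identifiers start with SPAC, SPBC, SPCC, SPAP, SPBP or SPCP, 5146 of the 6986 features of the deposited count table. Of these, 5003 passed the filter on low counts and were tested, and 143 were not, among them 38 without a count in any of the 6 libraries compared. The prefixes also take in 32 annotated pseudogenes and 1 annotated long non-coding RNA, prt2.

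Both strains were grown vegetatively to log phase in YES, a rich medium, at 30 °C. Polyadenylated RNA was made into stranded libraries, 3 per strain, numbered 4, 5 and 6 for WT and 1, 2 and 3 for asp1-D333A. An aps1 deletion strain of the same series, also with 3 libraries, entered the statistical model only, where it adds to the estimate of spread. Each genotype is a single numbered laboratory strain. The labels call the libraries replicate experiments without saying whether each came from its own culture, so the p-values measure the spread between these libraries, which may be technical. Total counts ran from 18244492 to 20166818 in WT and from 20593960 to 22999732 in asp1-D333A, and 98.3% to 98.7% of them fell on the protein-coding prefixes.

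Inositol pyrophosphates are inositol rings that carry diphosphate groups in addition to phosphates. In yeasts they report the phosphate status of the cell: they bind the SPX domains of phosphate transporters and polyphosphate enzymes, and in fission yeast they bear on where transcription ends upstream of the phosphate genes. Asp1 raises their level through its kinase domain and lowers it through its pyrophosphatase domain, and Aps1, a Nudix hydrolase, also breaks them down. Levels are given as CPM, read counts relative to library size, with library sizes scaled by the trimmed mean of M values (TMM), and changes as log2 fold changes, asp1-D333A minus WT, so that positive values are higher in the mutant; a value in brackets after a gene is its log2 fold change, with its standard error (SE) where given. A gene is called where the quasi-likelihood test of edgeR, after Benjamini-Hochberg adjustment over all 6147 features tested, gave an adjusted p under 0.05.

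The altered gene came first. The transcript of asp1 (SPCC1672.06c, chromosome III) had 48, 48.1 and 52.6 CPM in WT 4, 5 and 6 and 48.7, 49.9 and 66.1 CPM in asp1-D333A 1, 2 and 3. The groups overlapped, and only library 3 of the mutant lay above every WT value; the log2 fold change was 0.15 (SE 0.11, adjusted p 0.25). It was called higher with upper-quartile scaling (0.32) and with offsets for gene length and GC content (0.34). A substitution within the coding sequence leaves the transcript in place, so this level does not check the allele. Nearby on the chromosome, cox19 (SPCC1672.04c), which encodes a copper chaperone of cytochrome oxidase assembly, had 5.02, 5.72 and 5.98 CPM in WT 4, 5 and 6 and 14.1, 14.2 and 13.7 CPM in asp1-D333A 1, 2 and 3. All mutant values exceeded all WT values, a log2 difference of 1.32 (SE 0.12, adjusted p 8.2e-07). The gene between them, yrs1 (SPCC1672.05c), a tyrosine-tRNA ligase gene whose end overlaps that of asp1 on the same strand, was at -0.03 and not called.

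Among the 7 genes tested of inositol polyphosphate metabolism, 1 was called higher and 2 lower. The inositol pentakisphosphate kinase gene ipk1 rose from 122, 122 and 120.5 CPM in WT to 192, 193 and 141 CPM in asp1-D333A, with mutant library 3 nearest to WT (0.53, SE 0.11, adjusted p 0.0012). The gene of the other inositol pyrophosphate kinase family, kcs1, fell from 207, 208 and 199 CPM in WT to 135, 139.7 and 152 CPM in asp1-D333A (-0.52, SE 0.06, adjusted p 9.6e-06), and aps1 fell by 0.69 on the log2 scale (SE 0.10). In both the groups did not overlap. The phosphatase gene siw14 (0.06), the multikinase gene arg82 (0.12) and the phospholipase C gene plc1 (0.05) were not called.

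Changes in asp1-D333A were many and mostly small. Of the protein-coding genes tested, 3126 were called (62.5%), 1370 higher (27.4%) and 1756 lower (35.1%). Rises of 2-fold or more were called in 147 genes (2.94%) and falls of 2-fold or more in 114 (2.28%). Among the higher calls 755 lay under 0.5 on the log2 scale, 468 between 0.5 and 1, 113 between 1 and 2, 22 between 2 and 3 and 12 above 3. Among the lower calls the same bands held 967, 675, 106, 6 and 2 genes. Large falls were therefore fewer than large rises, and the 2 falls beyond 3 were pho1 and pho84. Mutant values lay above every WT value in 1447 genes (28.9%) and below every WT value in 1907 (38.1%).

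The balance of directions depended on the scaling. Higher calls made up 43.8% of all calls with TMM, 63.4% with upper-quartile scaling (2076 higher, 1197 lower) and 59.3% with total counts only (1849 higher, 1267 lower). The median log2 fold change of protein-coding genes was -0.04, 0.13 and 0.10 in the same order, and the group medians below move up with it. Groups with a median near 0 change sign under the other scalings, among them ribosomal proteins, the proteasome, heat shock proteins, glucose-repressed genes and transcription factors. The counts of every group are to be read beside the shares of all protein-coding genes tested, 27.4% higher and 35.1% lower.

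**Figure D1:**
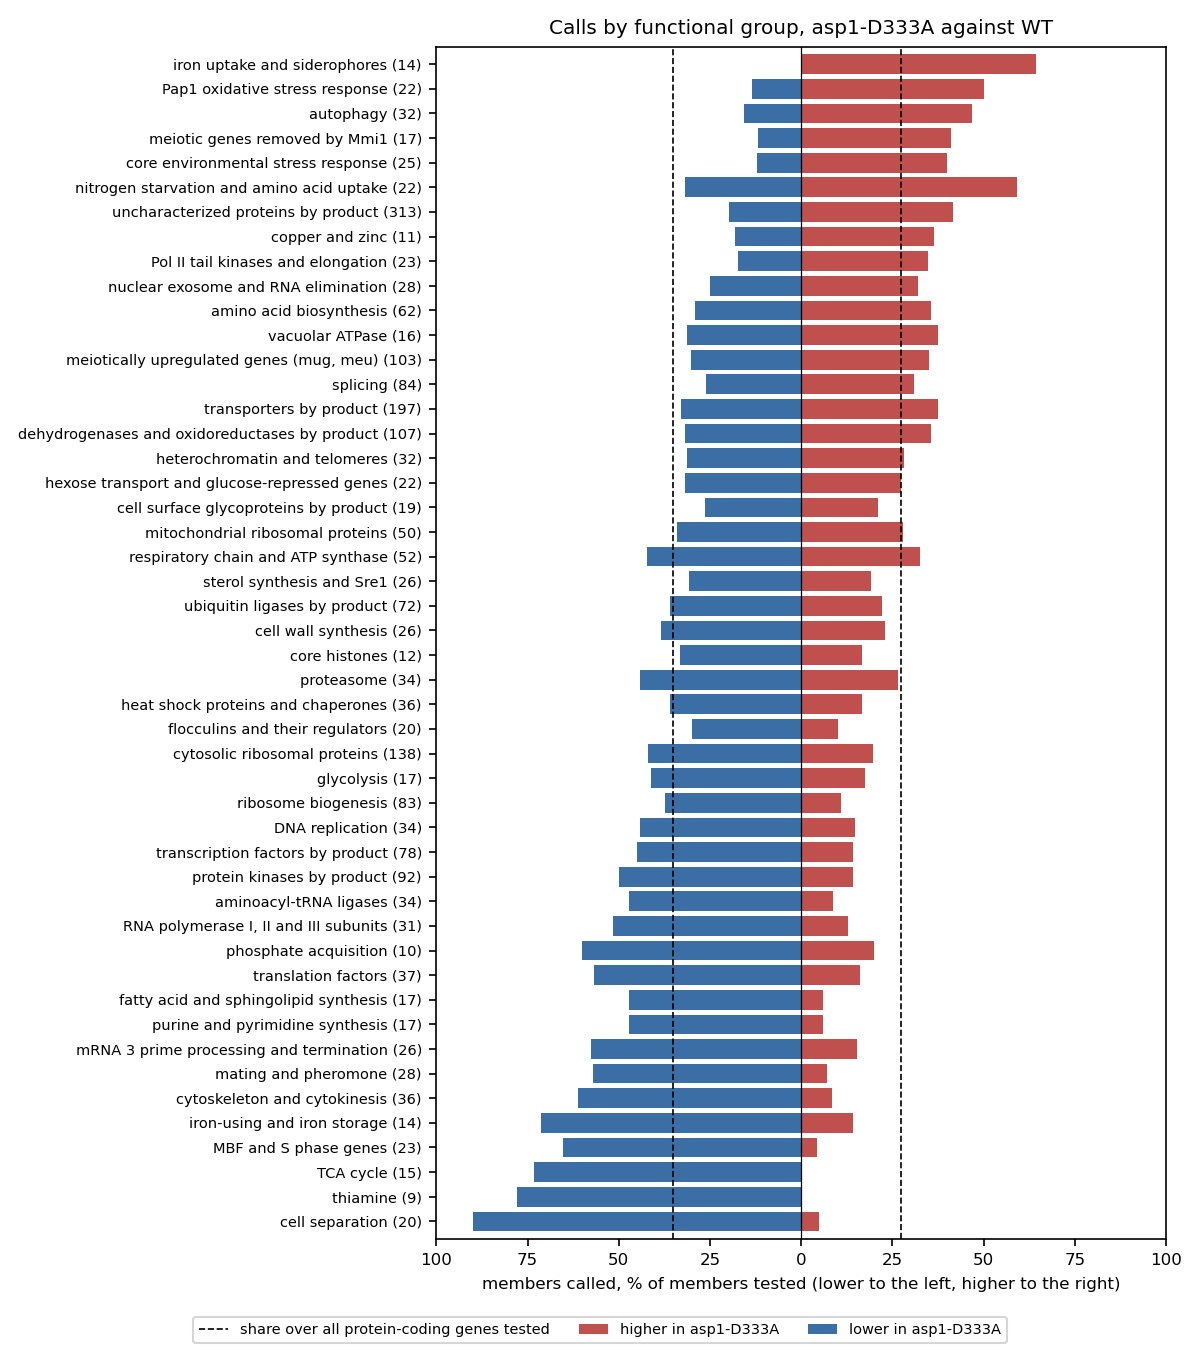
Percentage of the tested members of each functional group called higher (to the right) and lower (to the left) in asp1-D333A, for groups with at least 9 tested members; the number tested stands in brackets. Dashed lines mark the shares over all 5003 protein-coding genes tested, 27.4% higher and 35.1% lower; the iron uptake group is at the top with 64.3% higher and the cell separation group at the bottom with 90% lower.

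The direction of change went with the level, length and base composition of the gene. In the tertile of genes with the lowest level 38.2% were called higher and 19.9% lower, against 20.1% and 46.9% in the highest tertile. Their median log2 fold changes were 0.17 and -0.14. Over the 4998 genes with an annotated length, the shortest tertile had 38.5% higher and 22.7% lower calls and the longest 17.3% and 46.6%, with medians of 0.13 and -0.17. For GC content the lowest tertile had 41.2% higher and 22.5% lower, the highest 18.1% and 44.8%. These properties go together in genes, and the part they play in the calls of any group was not tested beyond a fit with offsets for length and GC content, chosen after seeing the data. That fit called 1216 genes higher and 1759 lower. Genes without a symbol had 36.8% higher and 24.9% lower calls, against 25.6% and 37% of genes with one.

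**Figure D2:**
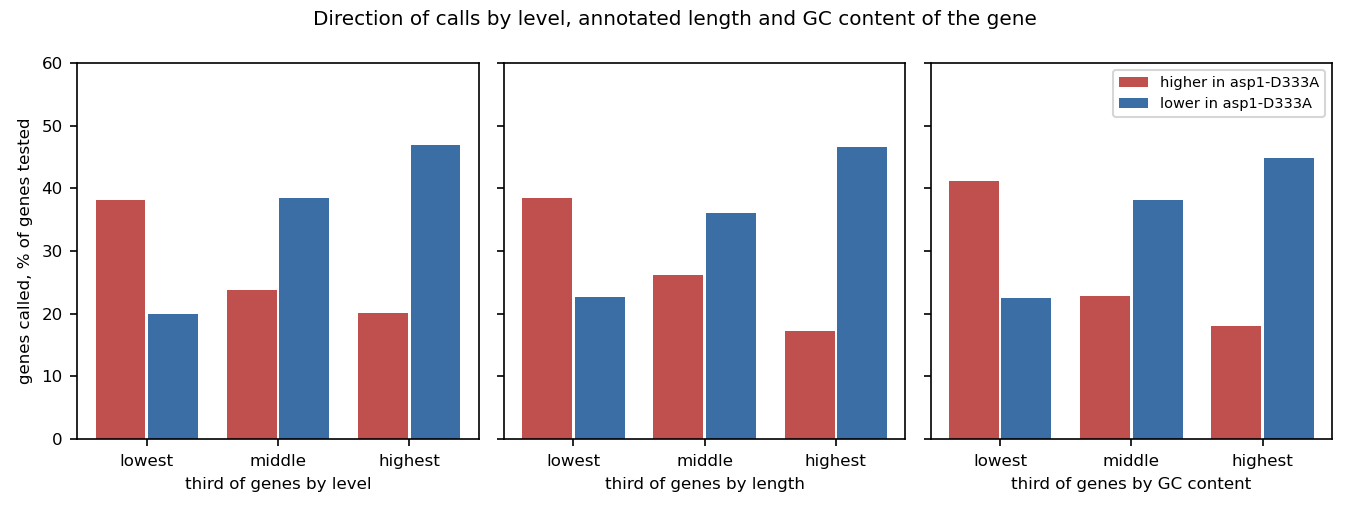
Percentage of protein-coding genes called higher or lower in asp1-D333A, in tertiles of the mean level over the 6 libraries, of annotated gene length and of GC content. Higher calls fall and lower calls rise from the lowest to the highest tertile of each, from 38.5% to 17.3% and from 22.7% to 46.6% for length.

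Libraries of the mutant differed among themselves more than those of WT. Over the 4876 protein-coding genes with a mean of at least 50 counts in the 6 libraries, the median standard deviation of log2 CPM was 0.073 in WT and 0.114 in asp1-D333A. Library 3 stood farthest from the rest. The median absolute difference between mutant libraries 1 and 2 was 0.063, under the 0.076 to 0.109 between WT libraries, while library 3 differed from them by 0.167 and 0.187. Library 3 lay over 0.5 log2 units from the mean of the other 2 in 234 genes, 145 higher and 89 lower, and over 1 unit in 22; libraries 1 and 2 did so in 41 and 37 genes, and over 1 unit in 5 and 7.

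The deviations of library 3 were uneven across groups. The heat shock and chaperone group had 9 of 36 tested members more than 0.5 log2 units above the other mutant libraries and 1 below, and glycolysis had 4 of 17 above. Its median deviation from the other 2 was 0.35 in glycolysis, 0.24 in heat shock proteins and chaperones, 0.23 in splicing and -0.26 in phosphate acquisition, against 0.05 over all genes. The transporter group had 17 of 197 members low and 3 high in library 3. Without this library 3317 genes were called, 1426 higher and 1891 lower. Single genes that stood out in library 3 were the arylsulfatase gene SPBPB10D8.02c, with 84, 80 and 57 counts in WT and 392, 450 and 1386 counts in asp1-D333A 1, 2 and 3, and the urea transporter gene SPBC23G7.13c, with 94, 122 and 77 counts in WT and 296, 294 and 97 counts in asp1-D333A 1, 2 and 3. The first was called higher (2.96, SE 0.51, adjusted p 0.0017) and was at 2.22 without library 3; the second was at WT level in library 3 and was not called (0.92, SE 0.41, adjusted p 0.077), but was called at 1.31 without it. The transporter gene mfc1 had a like pattern, with 49, 48 and 33 counts in WT and 128, 176 and 53 counts in asp1-D333A 1, 2 and 3.

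A further pattern separated all 3 mutant libraries at genes near one end of chromosome I. The Gdt1-like gene gdt1 (SPAC186.05c) had 8, 13 and 18 counts in WT and 11, 5008 and 229 counts in asp1-D333A 1, 2 and 3. Its neighbour SPAC186.06, annotated as an isomerase gene, had 0, 2 and 0 counts in WT and 2, 628 and 19 counts in asp1-D333A 1, 2 and 3, and SPAC186.04c had 1, 3 and 2 counts in WT and 1, 43 and 4 counts in asp1-D333A 1, 2 and 3. SPAC750.01, an aldo-keto reductase gene, had 19, 32 and 32 counts in WT and 57, 911 and 279 counts in asp1-D333A 1, 2 and 3. In each of the 4 genes library 2 was highest and library 3 intermediate. Library 1 was within the WT range in the first 3 and above it in SPAC750.01. The flocculin gene pfl9 (SPAC186.01), in the same stretch, was lowest in library 2, with 336, 322 and 458 counts in WT and 428, 142 and 321 counts in asp1-D333A 1, 2 and 3. Of these, gdt1 and SPAC750.01 were called higher (adjusted p 0.047 and 0.022), and both calls were lost when any 1 WT library was left out; without mutant library 2, gdt1 was at 2.83 and not called and SPAC750.01 at 2.23 and called. SPAC186.06 missed the threshold (adjusted p 0.051). None of these 5 genes has a near-identical copy.

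**Figure D3:**
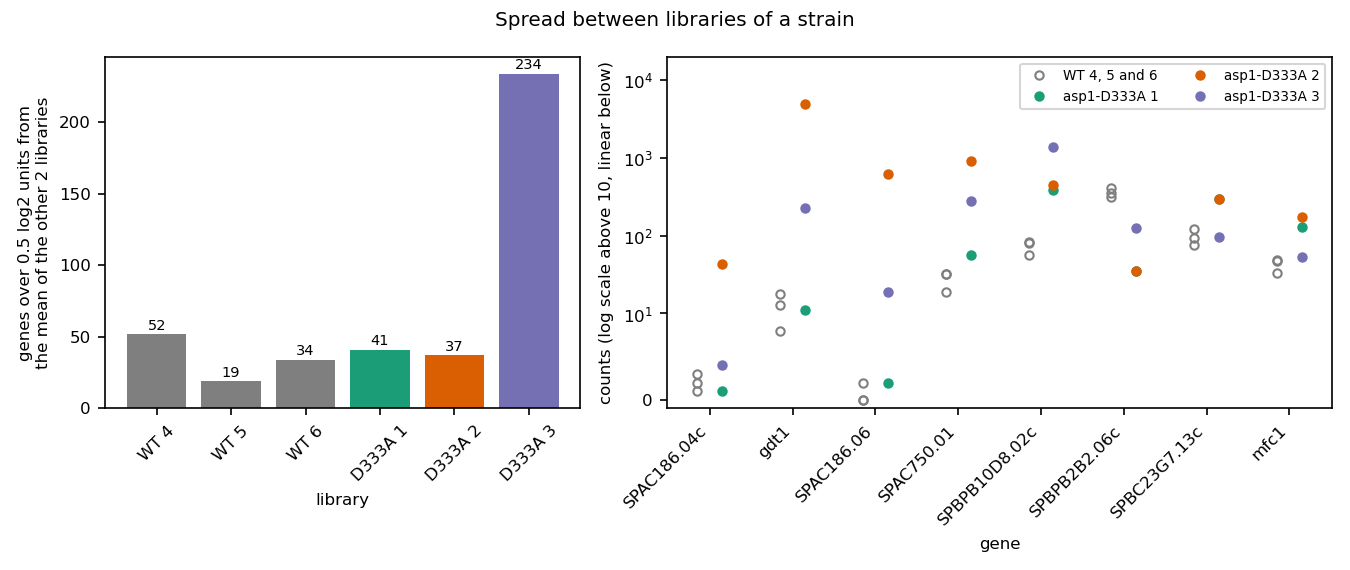
Left, number of protein-coding genes in each library that lie over 0.5 log2 units from the mean of the other 2 libraries of the strain, from 19 in WT 5 to 234 in asp1-D333A 3. Right, counts per library of 8 genes with wide spread in asp1-D333A, on an axis that is linear below 10 and logarithmic above; gdt1 runs from 11 to 5008 counts among the mutant libraries.

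Of the 10 tested genes of phosphate acquisition, 6 were called lower and 2 higher, with a median of -0.76. The acid phosphatase gene pho1 had 2259, 2350 and 2698 CPM in WT 4, 5 and 6 and 129, 138 and 83.4 CPM in asp1-D333A 1, 2 and 3, and the transporter gene pho84 had 1139, 1209 and 1342 CPM in WT 4, 5 and 6 and 89.7, 90.6 and 77.1 CPM in asp1-D333A 1, 2 and 3. Mutant values were far below WT in both (-4.39, SE 0.18, and -3.84, SE 0.10). The fall went beyond these targets. The polyphosphate synthesis genes vtc2 and vtc4 were lower, without overlap. The level of vtc2 went from 538, 512 and 502 CPM in WT to 271, 265 and 231 CPM in asp1-D333A (-1.02, SE 0.08, adjusted p 2e-07). That of vtc4 went from 215, 203 and 197 CPM in WT to 123, 114 and 96 CPM in asp1-D333A (-0.89, SE 0.08, adjusted p 1.6e-06). The further phosphate transporter genes pho841 (-0.76, SE 0.08) and pho842 (-0.75, SE 0.11) were also called lower. Library 3 was the lowest mutant library in 5 of these 6 genes and the highest for pho841. The group median by library, taken against the WT mean, was -0.68, -0.71 and -0.85 in libraries 1, 2 and 3. The called rises were those of csk1, a kinase gene whose loss is known to raise pho1, from 23.7, 21.9 and 22.9 CPM in WT to 32.1, 34.1 and 37.4 CPM in asp1-D333A (0.60, SE 0.10, adjusted p 0.00016), and of pqr1, a ubiquitin ligase gene that limits phosphate transporters (0.43, SE 0.09). The gene of the activator Pho7 (0.16) and the glycerophosphodiester transporter gene tgp1 (-0.23) were not called. The long non-coding RNA prt2, upstream of pho84, had 27.9, 26.5 and 27.8 CPM in WT and 53.3, 53.0 and 48.5 CPM in asp1-D333A.

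Most genes of iron acquisition rose. Of 14 tested genes 9 were called higher, all at least 2-fold, and none lower, with a median of 1.15. Of the genes tested 64.3% rose, against 27.4% of all protein-coding genes. Fission yeast imports iron through siderophore transporters, through a reductive system of a ferric reductase with an oxidase and a permease, and through a heme receptor, and all of these routes were represented. The siderophore transporter gene str3 had 0.502, 0.153 and 0.52 CPM in WT 4, 5 and 6 and 23.2, 22.2 and 24.4 CPM in asp1-D333A 1, 2 and 3, and str1 had 42.2, 43.1 and 29.2 CPM in WT 4, 5 and 6 and 442, 469 and 341 CPM in asp1-D333A 1, 2 and 3. In both the mutant libraries lay above every WT library, and str1 was lowest in library 3 (3.45, SE 0.26, adjusted p 1.7e-05). The heme uptake gene shu1, at a low level, had 0.279, 0.204 and 0.156 CPM in WT 4, 5 and 6 and 2.05, 1.69 and 0.868 CPM in asp1-D333A 1, 2 and 3 (2.81, SE 0.48, adjusted p 0.00022).

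For the reductive route, the ferric reductase gene frp1 rose from 5.19, 4.39 and 4.58 CPM in WT to 27.2, 29.2 and 30.7 CPM in asp1-D333A (2.62, SE 0.15, adjusted p 3.6e-08). The oxidase gene fio1 rose from 9.2, 9.8 and 9.05 CPM in WT to 40.2, 37.8 and 36.3 CPM in asp1-D333A (2.03, SE 0.10, adjusted p 9.4e-09), and its partner permease gene fip1 from 46.7, 42.3 and 38.1 CPM in WT to 129, 133 and 106 CPM in asp1-D333A (1.54, SE 0.11, adjusted p 1.7e-07). The mutant libraries were close to each other for frp1 and fio1, and library 3 was lowest for fip1. A further reductase gene, frp2 (1.14, SE 0.17), the vacuolar transporter gene abc3 (1.17, SE 0.07) and php4 (1.11, SE 0.11), which encodes the repressor of iron-using genes, completed the rises. The genes of ferrichrome synthesis, sib1 (-0.04), sib2 (0.04) and sib3 (0.11), and the gene of the iron sensor Fep1 (0.01), which represses the uptake genes, were not called. For fep1 library 3 was the only mutant library below WT, with 178, 172 and 168 CPM in WT 4, 5 and 6 and 189.5, 195 and 138 CPM in asp1-D333A 1, 2 and 3.

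Of 14 tested members of the list of iron-using enzymes and iron storage, 10 were called lower and 2 higher (71.4% and 14.3%), with a median of -0.37. The level of aco1, whose enzyme holds an iron-sulfur cluster, went from 1257, 1319 and 1242 CPM in WT to 704, 668 and 630.4 CPM in asp1-D333A (-0.93, SE 0.08, adjusted p 5.9e-07). The homoaconitase gene of lysine synthesis, lys2, went from 483, 507 and 478 CPM in WT to 257, 252 and 235 CPM in asp1-D333A (-0.98, SE 0.06, adjusted p 5.8e-08), and the biotin synthase gene bio2 from 649, 605 and 563 CPM in WT to 375, 369 and 401 CPM in asp1-D333A (-0.67, SE 0.07, adjusted p 3.3e-06). No mutant library overlapped WT in these 3. Smaller falls were called for ilv3 (-0.52), the succinate dehydrogenase genes sdh1 (-0.42), sdh2 (-0.22) and sdh3 (-0.21), and the vacuolar iron transporter gene pcl1 (-0.37). The list also holds leu1 (-0.38), whose enzyme is not itself an iron-sulfur protein and which was not called with offsets for length and GC content. The assembly factor gene isa2 (0.49) and the glutaredoxin gene grx4 (0.39), whose product senses iron with Php4 and Fep1, were called higher.

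In copper and zinc homeostasis 4 of 11 tested genes were higher and 2 lower (36.4% and 18.2%, against 27.4% and 35.1% of all genes). The copper-sensing activator gene cuf1 fell from 133, 140.0 and 129 CPM in WT to 69.8, 76.9 and 69.7 CPM in asp1-D333A (-0.90, SE 0.08, adjusted p 9.9e-07), and its target ctr4, a copper transporter gene, from 71.1, 73.3 and 64 CPM in WT to 37, 40.8 and 50.1 CPM in asp1-D333A (-0.70, SE 0.13, adjusted p 0.00044). The vacuolar copper transporter gene ctr6 (0.68) and the meiotic copper regulator gene cuf2 (1.62, SE 0.46) were higher. The zinc storage genes zym1, a metallothionein gene, and zhf1, an importer gene of the endoplasmic reticulum, rose (1.08, SE 0.12 for zym1 and 0.70, SE 0.09 for zhf1); the zinc transporter gene zrt1 (-0.53) was not called. Of 9 tested thiamine genes 7 were lower and none higher (77.8% lower, median -0.40). The transporter gene thi9 fell from 103, 96.8 and 87.9 CPM in WT to 51.2, 45.8 and 39.5 CPM in asp1-D333A (-1.07, SE 0.10, adjusted p 1.1e-06), and the genes of the synthesis enzyme Thi4 (-0.73) and of the activator Thi1 (-0.67) fell with it. The thiamine-repressed gene nmt1 stayed under 1 CPM in all 6 libraries and was not called.

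**Figure D4:**
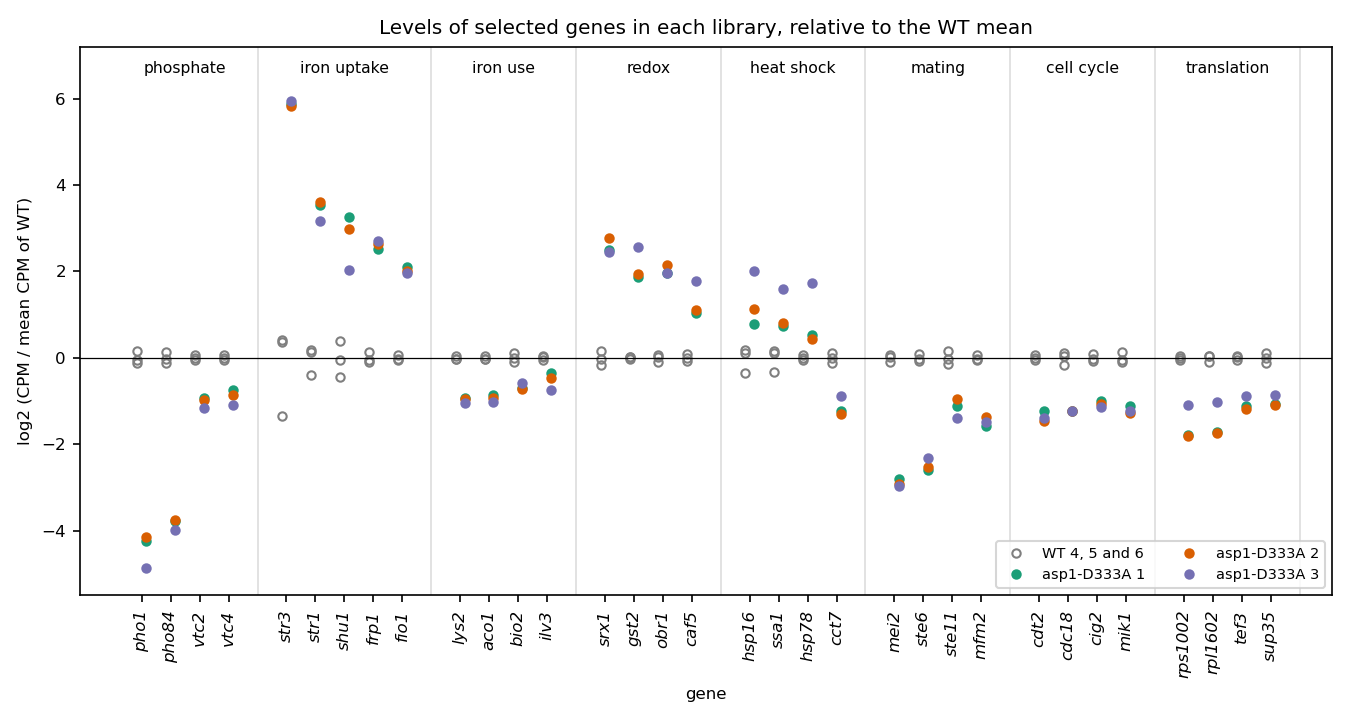
Log2 ratio of the CPM of each library to the mean CPM of WT for named genes of 8 functional groups. Open circles are the 3 WT libraries, filled circles the 3 asp1-D333A libraries. The iron uptake and redox genes shown, taken from members called higher, lie above WT in all mutant libraries. In their lists 9 of 14 iron uptake genes were called higher and none lower, and 11 of 22 Pap1 genes higher and 3 lower. The heat shock genes hsp16, ssa1 and hsp78 are highest in mutant library 3.

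Of 22 tested genes of the oxidative stress factor Pap1, 11 were called higher and 3 lower, and 8 were not called (50% higher and 13.6% lower). The sulfiredoxin gene srx1, whose product repairs oxidised peroxiredoxin, had 13.9, 12.2 and 11 CPM in WT 4, 5 and 6 and 70.2, 84.3 and 67.6 CPM in asp1-D333A 1, 2 and 3 (2.58, SE 0.12, adjusted p 2.9e-09). The quinone reductase gene obr1 had 748, 819 and 846 CPM in WT 4, 5 and 6 and 3145, 3599 and 3159 CPM in asp1-D333A 1, 2 and 3 (2.04, SE 0.11, adjusted p 1e-08), and the glutathione transferase gene gst2 had 144, 142 and 137 CPM in WT 4, 5 and 6 and 512, 538 and 841 CPM in asp1-D333A 1, 2 and 3 (2.16, SE 0.17, adjusted p 2.7e-06). None of the 3 overlapped WT, and gst2 was highest in library 3. The export pumps caf5 (1.35, SE 0.17) and bfr1 (1.02, SE 0.07) rose as well, as did thioredoxin trx1 (0.59, SE 0.08). Peroxiredoxin tpx1 (-0.59, SE 0.11), thioredoxin reductase trr1 (-0.49) and the superoxide dismutase gene sod2 (-0.25) fell, so the members did not move as one. The transcript of pap1 itself was not called.

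In the core environmental stress response, the common set that the kinase Sty1 switches on, 10 of 25 genes were higher and 3 lower. These are 40% and 12%, against 27.4% and 35.1% of all genes. Besides srx1 the larger rises were in the calcium pump gene cta3, from 4.02, 4.39 and 4.21 CPM in WT to 23.6, 25.3 and 14.2 CPM in asp1-D333A (2.32, SE 0.19, adjusted p 5e-07), and in hsp16. The genes of the stress factors atf1 (-0.09) and pcr1 (0.03), catalase ctt1 (-0.24) and trehalose phosphate synthase tps1 (0.06) were not called. Lower calls were tms1 (-0.75), rds1 (-0.61) and tpp1 (-0.44).

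Of 36 tested heat shock proteins and chaperones, 6 were called higher and 13 lower, and 17 were not called. The share of lower calls (36.1%) was near the 35.1% of all protein-coding genes, and that of higher calls (16.7%) was below their 27.4%. The small heat shock gene hsp16 had 78.7, 83.5 and 57 CPM in WT 4, 5 and 6 and 126, 159.5 and 296 CPM in asp1-D333A 1, 2 and 3, the inducible Hsp70 gene ssa1 had 114, 118 and 82.9 CPM in WT 4, 5 and 6 and 175, 184 and 315 CPM in asp1-D333A 1, 2 and 3, and the mitochondrial disaggregase gene hsp78 had 75, 79.6 and 72.8 CPM in WT 4, 5 and 6 and 109, 102 and 250.2 CPM in asp1-D333A 1, 2 and 3. Each was called higher, at 1.41 (SE 0.33, adjusted p 0.0081), 1.10 (SE 0.28, adjusted p 0.012) and 1.02 (SE 0.34, adjusted p 0.037) in turn, and in each library 3 was highest by a margin wider than the gap between library 1 and WT. The call of hsp78 was lost when any 1 WT library was left out, and without mutant library 3 its value was 0.48, still called. Without that library 6 members of the group were still called higher, but none of them, hsp16 and ssa1 included, at 2-fold or more. Of the cytosolic chaperonin subunit genes, cct7 fell from 478, 442 and 404 CPM in WT to 187, 179 and 238 CPM in asp1-D333A (-1.13, SE 0.10, adjusted p 7.3e-07), and cct3 (-0.87), cct2 (-0.49), cct1 (-0.33), cct8 (-0.28) and cct6 (-0.26) were called lower, while cct4 (-0.14) and cct5 (-0.15) were not called. The mitochondrial Hsp70 gene ssc1 (-0.74) and the constitutive Hsp70 genes ssa2 (-0.57) and sks2 (-0.57) were lower too.

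Ribosomal protein genes moved unevenly. Of 138 tested genes of cytosolic ribosomal proteins, 58 were called lower and 27 higher (42% and 19.6%), and 13 fell at least 2-fold while none rose as much. The median was -0.08 with TMM and 0.09 with upper-quartile scaling, where 48 were higher and 48 lower. By library, against the WT mean, the group median was -0.03, -0.01 and -0.26 in libraries 1, 2 and 3, farthest from WT in library 3. Without library 3 the median was -0.02, with 42 higher and 57 lower calls. The range ran from -1.52 for rps1002 to 0.80 for rpl39. The gene rps1002 had 547, 559 and 529 CPM in WT 4, 5 and 6 and 159, 155 and 257 CPM in asp1-D333A 1, 2 and 3 (-1.52, SE 0.17, adjusted p 3.9e-05), and rpl1602 had 1188, 1183 and 1066 CPM in WT 4, 5 and 6 and 349.9, 345 and 559.8 CPM in asp1-D333A 1, 2 and 3 (-1.45, SE 0.16, adjusted p 2.1e-05). For these 2, rpl15 (-1.44, SE 0.10) and rps001 (-1.31, SE 0.14), all mutant values were below WT. In these genes, unlike the group median, library 3 was nearest to WT. At the other end, rpl39 had 747, 787 and 807 CPM in WT 4, 5 and 6 and 1468, 1419 and 1178 CPM in asp1-D333A 1, 2 and 3 (0.80, SE 0.09, adjusted p 4.3e-06). Most ribosomal proteins of this yeast have paralogous genes, and reads of close pairs may be split between them.

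In the translation factor group 21 of 37 tested were lower and 6 higher (16.2% higher and 56.8% lower). The elongation factor 3 gene tef3 fell from 4137, 4211 and 3959 CPM in WT to 1895, 1814 and 2210 CPM in asp1-D333A (-1.06, SE 0.09, adjusted p 9.1e-07), and the release factor gene sup35 from 844, 779.5 and 711 CPM in WT to 373, 368 and 430.1 CPM in asp1-D333A (-1.0, SE 0.08, adjusted p 4.6e-07). The near-identical genes of elongation factor 1 alpha, tef101 (-1.05), tef102 (-0.82) and tef103 (-0.86), were lower together, with library 3 between the others and WT. Their shares are uncertain because reads may match more than 1 of them. Among aminoacyl-tRNA ligases 16 of 34 were lower and 3 higher (47.1% and 8.82%, against 35.1% and 27.4% of all genes). Under upper-quartile scaling 13 were lower and 5 higher. The largest fall was that of the alanine ligase gene ala1, from 674, 648 and 626 CPM in WT to 349, 334 and 375 CPM in asp1-D333A (-0.88, SE 0.07, adjusted p 2.5e-07).

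Subunits of the RNA polymerases were lower in 16 and higher in 4 of 31 cases (12.9% higher and 51.6% lower). This balance depended on the scaling: 12 were lower and 11 higher with upper-quartile scaling, and 12 lower and 8 higher with total counts only. The largest subunit of RNA polymerase II, rpb1, fell from 618, 609 and 571 CPM in WT to 316, 305 and 382 CPM in asp1-D333A (-0.84, SE 0.09, adjusted p 2.8e-06), with rpb2 (-0.64), rpb3 (-0.80), rpb9 (-0.74) and rpb11 (-0.57); rpb4 rose (0.57). Ribosome biogenesis genes were lower in 31 and higher in 9 of 83, a share of lower calls (37.3%) close to the 35.1% of all genes. Within it the U3 particle gene utp13 fell from 226, 210.5 and 188 CPM in WT to 87, 86.6 and 96.6 CPM in asp1-D333A (-1.21, SE 0.07, adjusted p 5e-08), and the fibrillarin gene fib1 by 0.85 on the log2 scale (SE 0.08). With upper-quartile scaling 30 of the 83 were higher and 25 lower.

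The tricarboxylic acid cycle was lower throughout its called members, 11 of 15 with none higher (73.3%, median -0.42). Besides aco1 and succinate dehydrogenase, kgd2 of the oxoglutarate dehydrogenase complex fell from 299.5, 291 and 262 CPM in WT to 158, 150.1 and 178 CPM in asp1-D333A (-0.81, SE 0.08, adjusted p 3.3e-06), and the fumarase gene fum1 from 438, 446 and 428 CPM in WT to 284, 283 and 238 CPM in asp1-D333A (-0.71, SE 0.09, adjusted p 1.5e-05). Malate dehydrogenase mdh1 (-0.62) and citrate synthase cit1 (-0.38) were called lower, and the pyruvate dehydrogenase genes pda1 (0.19) and pdb1 (-0.15) were not called. The group median by library was -0.30, -0.36 and -0.56, lowest in library 3. With offsets for length and GC content 9 were lower and 2 higher.

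Respiratory chain and ATP synthase genes split, with 22 of 52 lower and 17 higher (42.3% and 32.7%, against 35.1% and 27.4% of all genes). Falls included the external NADH dehydrogenase gene nde1, from 1100, 1030 and 955 CPM in WT to 496, 473 and 433 CPM in asp1-D333A (-1.14, SE 0.09, adjusted p 2.2e-07), cytochrome c1 cyt1, from 838, 857 and 809 CPM in WT to 427, 456 and 425 CPM in asp1-D333A (-0.94, SE 0.07, adjusted p 3.8e-07), the internal dehydrogenase gene ndi1 (-0.81), cytochrome c cyc1 (-0.77) and the ATP synthase genes atp1 (-0.51) and atp3 (-0.53). Rises included genes of small subunits and assembly factors, namely cox19, cox16 (0.82), sdh8 (0.78) and cox7 (0.63). This group has a median gene length of 1181 nucleotides, against 1795 over all genes. With offsets for length and GC content 26 were lower and 7 higher. The same offsets moved mitochondrial ribosomal proteins from 14 higher and 17 lower of 50 to 6 and 25, and the vacuolar ATPase from 6 and 5 of 16 to 4 and 9.

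**Figure D5:**
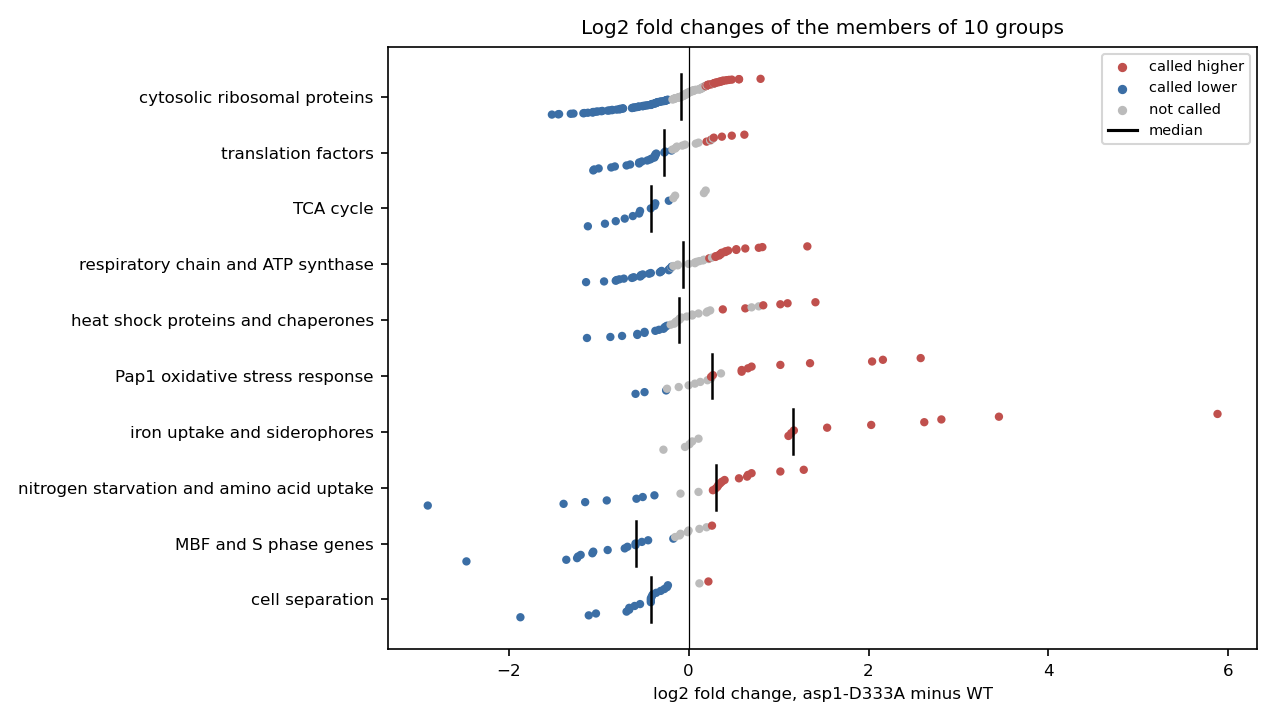
Log2 fold change of each tested member of 10 functional groups, ordered within a group, with called members in red (higher) and blue (lower), members not called in grey and the group median as a black line. Ribosomal proteins run from -1.52 to 0.80, and the iron uptake group has its called members from 1.11 to 5.88.

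Glycolysis had 7 of 17 genes lower and 3 higher (41.2% and 17.6%, against 35.1% and 27.4% of all genes), with isozymes in opposite directions. For glyceraldehyde 3-phosphate dehydrogenase, gpd3 had 209, 227 and 226 CPM in WT 4, 5 and 6 and 85.7, 90.3 and 169.8 CPM in asp1-D333A 1, 2 and 3 and tdh1 had 2444, 2616 and 2418 CPM in WT 4, 5 and 6 and 3336, 3275 and 6117 CPM in asp1-D333A 1, 2 and 3. Library 3 was highest for both, so that gpd3 (-0.94, SE 0.28, adjusted p 0.024) came nearer to WT there and tdh1 (0.77, SE 0.24, adjusted p 0.018) moved away from it. The call of gpd3 was lost without mutant library 1 or 2 or WT library 5 or 6. For pyruvate decarboxylase, the abundant pdc101 fell from 4720, 5137 and 4875 CPM in WT to 2544, 2445 and 3182 CPM in asp1-D333A (-0.85, SE 0.12, adjusted p 3.3e-05), and the minor pdc202 rose (0.82). Hexokinase hxk2 (-0.64) and phosphofructokinase pfk1 (-0.51) were lower. With offsets for length and GC content the group had 8 higher and 2 lower calls.

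Among genes of hexose transport and glucose repression, 6 of 22 were higher and 7 lower (27.3% and 31.8%), near the shares of all genes. The dihydroxyacetone kinase gene dak2 fell from 55.1, 60.2 and 61 CPM in WT to 15.6, 16.5 and 23 CPM in asp1-D333A (-1.68, SE 0.13, adjusted p 2.9e-07), the high-affinity glucose transporter gene ght5 from 192, 153 and 203 CPM in WT to 86.2, 89 and 73.5 CPM in asp1-D333A (-1.14, SE 0.10, adjusted p 7.7e-07), and the glucose repressor gene scr1 from 94.9, 91 and 82.8 CPM in WT to 44.8, 48.2 and 41.1 CPM in asp1-D333A (-1.0, SE 0.09, adjusted p 1.2e-06). The invertase gene inv1, a target of Scr1, rose from 9.87, 8.98 and 8.74 CPM in WT to 22.5, 27.6 and 22.2 CPM in asp1-D333A (1.39, SE 0.13, adjusted p 1e-06), and the fructose bisphosphatase gene fbp1 from 5.58, 6.17 and 5.25 CPM in WT to 9.52, 11.7 and 9.19 CPM in asp1-D333A (0.84, SE 0.14, adjusted p 0.00019).

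Nitrogen starvation and amino acid uptake genes were called in 20 of 22 cases, 13 higher and 7 lower (59.1% and 31.8%). Ammonium transporters were higher, amt3 (1.28, SE 0.20), amt2 (0.40) and amt1 (0.35), and so were the amino acid permease genes isp5 (1.02, SE 0.12), cat1 (0.70), per1 (0.65) and aat1 (0.56). The oligopeptide transporter gene isp4 fell from 92.9, 95.9 and 107 CPM in WT to 34.4, 39.8 and 38.8 CPM in asp1-D333A (-1.39, SE 0.08, adjusted p 3.1e-08), and the glutamate dehydrogenase gene gdh1 (-0.91), the gene of the other glutamate dehydrogenase, gdh2 (-0.58), and glutamine synthetase gln1 (-0.51) were lower. Amino acid biosynthesis had 22 of 62 higher and 18 lower, both near the shares of all genes, and 7 members were more than 0.5 log2 units low in library 3. Autophagy genes had 15 of 32 higher and 5 lower (46.9% higher and 15.6% lower). The rises were small, up to 0.95 for atg16, and the initiation kinase genes atg1 (-0.39) and atg13 (-0.36) were among the falls. The purine and pyrimidine synthesis list had 8 of 17 lower and 1 higher (47.1% and 5.88%, against 35.1% and 27.4% of all genes). This balance depended on the scaling, with 7 lower and 6 higher under upper-quartile scaling. The largest fall was that of ade7, from 222, 209.8 and 209.9 CPM in WT to 114, 114 and 118 CPM in asp1-D333A (-0.89, SE 0.06, adjusted p 6.6e-08).

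Genes of sexual differentiation were mostly lower or not called. Of 28 tested genes of mating and pheromone signalling 16 were lower and 2 higher (7.14% higher and 57.1% lower), and 9 fell at least 2-fold. In a culture of many cells, fewer cells that express a gene and less RNA in each cell cannot be told apart. The meiotic switch gene mei2 had 96.5, 100.6 and 89.4 CPM in WT 4, 5 and 6 and 13.6, 12.6 and 12.3 CPM in asp1-D333A 1, 2 and 3, and the gene of the master regulator Ste11 had 77.3, 68.7 and 63.4 CPM in WT 4, 5 and 6 and 32.2, 36 and 26.6 CPM in asp1-D333A 1, 2 and 3. The Ras exchange factor gene ste6 had 39.1, 36.6 and 35.3 CPM in WT 4, 5 and 6 and 6.15, 6.43 and 7.38 CPM in asp1-D333A 1, 2 and 3. None of these overlapped WT, with log2 fold changes of -2.90 (SE 0.10, adjusted p 3.1e-10), -1.15 (SE 0.11, adjusted p 1.7e-06) and -2.47 (SE 0.11, adjusted p 2.9e-09) in turn.

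Along the pheromone pathway the MAP kinase gene spk1 fell from 67.1, 72.4 and 67 CPM in WT to 26.4, 26.9 and 21.9 CPM in asp1-D333A (-1.46, SE 0.10, adjusted p 8.1e-08), the G-protein regulator gene rgs1 from 51.9, 49.4 and 48.4 CPM in WT to 16.8, 19.3 and 19.1 CPM in asp1-D333A (-1.44, SE 0.09, adjusted p 5e-08), and the genes of the alpha subunit gpa1 (-0.50) and the kinase byr1 (-0.48) less; the genes of the kinase Byr2 (-0.07) and of the inhibitor Pat1 (0.21) were not called. Genes specific to M cells were lower in 4 of 6 cases and higher in none: the M-factor genes mfm2, from 139, 139 and 150.1 CPM in WT to 47.9, 54.8 and 50.9 CPM in asp1-D333A (-1.48, SE 0.07, adjusted p 3.4e-09), and mfm1 (-2.28), the P-factor receptor gene mam2 (-1.11, SE 0.11) and the exporter gene mam1 (-0.76, SE 0.09). Of 4 genes specific to P cells, map1 fell from 6.86, 9.44 and 10.7 CPM in WT to 2.78, 3.42 and 3.67 CPM in asp1-D333A (-1.45, SE 0.18, adjusted p 1.4e-05), while the P-factor gene map2 (-0.14) and the M-factor receptor gene map3 (-0.04) were not called. Both sets were detected in both strains; the labels do not give the mating types, whose part was not tested. The called rises were fus1 (0.40) and mei3 (0.86).

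Of 17 tested meiotic transcripts that the RNA-binding protein Mmi1 removes in growing cells, 7 were called higher and 2 lower (41.2% and 11.8%, against 27.4% and 35.1% of all protein-coding genes). Higher calls were 5 without mutant library 1 or 2 or WT library 4. Their levels were low. The highest fold changes, mug9 (2.49, SE 0.55), mug10 (2.1, SE 0.39), rec8 (1.97, SE 0.51) and mcp7 (1.46, SE 0.34), rested on levels under 4 CPM. The recombination gene rec10 rose from 7.98, 8.32 and 9.62 CPM in WT to 16.6, 17.2 and 14.5 CPM in asp1-D333A (0.89, SE 0.13, adjusted p 7.6e-05). The recombinase gene dmc1 (-1.82, SE 0.37) and the spore formation gene spo6 (-1.69, SE 0.25) fell. The transcript of mmi1 was itself lower, from 144, 138 and 141 CPM in WT to 94.4, 87.9 and 88.7 CPM in asp1-D333A (-0.64, SE 0.06, adjusted p 1.1e-06). Genes named for meiotic upregulation (mug and meu) had 36 of 103 higher and 31 lower, with 13 up and 2 down at least 2-fold; with offsets for length and GC content 24 were higher and 33 lower.

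MBF is the factor that drives the G1 to S transition. The list of MBF and S phase genes had 15 of 23 lower and 1 higher (65.2% and 4.35%). Of these falls 7 were at least 2-fold, among them ste6, which is also in the mating list. The replication licensing gene cdc18 had 114, 108 and 94.4 CPM in WT 4, 5 and 6 and 45.1, 45 and 45.2 CPM in asp1-D333A 1, 2 and 3 (-1.23, SE 0.08, adjusted p 5e-08). Its partner gene cdt1 (-0.71), the ubiquitin ligase adaptor gene cdt2 (-1.36, SE 0.08), the cyclin gene cig2 (-1.07, SE 0.07), the kinase gene mik1 (-1.20, SE 0.10) and the activator gene rep1 (-1.24, SE 0.15) were lower too. The 3 mutant libraries were nearly equal for cdc18. The factor's own subunit genes cdc10 (-0.59) and res1 (-0.17) were lower and res2 (-0.09) was not called. The ribonucleotide reductase small subunit gene suc22 was the exception at 0.26. In the replication machinery 15 of 34 genes were lower and 5 higher (44.1% and 14.7%, against 35.1% and 27.4% of all genes). Falls included mcm6, from 82, 76 and 76.1 CPM in WT to 31.5, 33.6 and 40.7 CPM in asp1-D333A (-1.14, SE 0.09, adjusted p 4.8e-07), and pol1 (-0.90), while mcm5 (-0.04) was not called.

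Of 12 genes in the histone list 2 were higher and 4 lower. The GATA factor gene ams2, which drives their transcription in S phase, fell from 191, 192 and 176 CPM in WT to 77.6, 78.4 and 76.7 CPM in asp1-D333A (-1.26, SE 0.06, adjusted p 3.7e-09), with the centromeric histone gene cnp1 (-0.73) and the H2A.Z gene pht1 (-0.57). Among the core histones, the H2A gene hta1 was lower (-0.25) and the H4 genes hhf2 (0.27) and hhf1 (0.32) were higher, but hhf1 was at 0.03 and not called with offsets for length and GC content.

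Cell separation had the largest share of falls of all groups with at least 9 tested members: 18 of 20 lower and 1 higher (90% and 5%), median -0.42. The glucanase gene eng1, whose enzyme cuts the primary septum, had 774, 743 and 772 CPM in WT 4, 5 and 6 and 522, 529 and 399 CPM in asp1-D333A 1, 2 and 3, with no overlap between the strains. The glucanase genes eng1 (-0.66, SE 0.10) and agn1 (-0.60, SE 0.06), the septin ring gene mid2 (-0.69, SE 0.07) and the genes adg1 (-0.24), adg2 (-0.41) and adg3 (-0.31) were lower. Further falls were the kinase gene ppk1, from 202, 197 and 181 CPM in WT to 97, 94.5 and 76.5 CPM in asp1-D333A (-1.11, SE 0.09, adjusted p 2.5e-07), the anaphase activator gene slp1, from 282, 286 and 256 CPM in WT to 146, 151 and 106 CPM in asp1-D333A (-1.03, SE 0.12, adjusted p 1.7e-05), and the polo kinase gene plo1 (-0.40). The factor gene mbx1 was called higher (0.22), and sep1 (0.12) was not called. By library the group median was -0.36, -0.43 and -0.58. With upper-quartile scaling 13 were lower and 2 higher.

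In the cytoskeleton and cytokinesis group 22 of 36 were lower and 3 higher (8.33% higher and 61.1% lower). Contractile ring genes fell, rng2 from 188, 184 and 170.1 CPM in WT to 95.4, 89.5 and 98.8 CPM in asp1-D333A (-0.93, SE 0.06, adjusted p 6.6e-08), cdc15 (-0.66, SE 0.07), cdc12 (-0.56) and mid1 (-0.44), as did those of the septation initiation kinases sid2 (-0.61, SE 0.06), sid1 (-0.52) and cdc7 (-0.53). Actin act1 (0.19) was not called, and tropomyosin cdc8 (0.28) and profilin cdc3 (0.50) were higher. The median gene length of the group was 2746 nucleotides, against 1795 over all genes. With offsets for length and GC content 20 were lower and 5 higher. The cell wall synthesis list had 10 of 26 lower and 6 higher, near the shares of all genes, and 6 lower with the offsets.

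Genes of messenger RNA 3 prime processing and termination were lower in 15 of 26 cases and higher in 4 (15.4% higher and 57.7% lower). These factors end transcription of the non-coding RNAs upstream of the phosphate genes as well as of coding genes. The phosphatase module gene swd22 fell from 97.6, 95.6 and 87.4 CPM in WT to 43.2, 42.7 and 39.6 CPM in asp1-D333A (-1.16, SE 0.08, adjusted p 7.7e-08), and its partners ppn1 (-0.56) and dis2 (-0.15) were lower (ppn1) and not called (dis2). Lower calls also took in the termination factor gene seb1 (-0.56), the cleavage factor genes pta1 (-0.57), ctf1 (-0.59, SE 0.07), rna15 (-0.51), cft1 (-0.46) and cft2 (-0.37), and the exonuclease gene dhp1 (-0.44). The poly(A)-binding protein gene nab3 rose from 21.4, 22.8 and 23.9 CPM in WT to 37, 39.7 and 42.9 CPM in asp1-D333A (0.81, SE 0.10, adjusted p 1.6e-05), and the endonuclease gene ysh1 (0.24), pcf11 (0.21) and the tail phosphatase gene fcp1 (0.36) were higher; ssu72 (0.04) and rhn1 (-0.27) were not called. By library the median was -0.38, -0.41 and -0.19, nearest to 0 in library 3.

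Kinases of the RNA polymerase II tail and elongation factors had 8 of 23 higher and 4 lower (34.8% and 17.4%). Among the rises were mcs6 (0.54), pmh1 (0.57) and csk1 (0.60), and cdk9 (0.19) was not called. Elongation partners ell1 (-0.65, SE 0.06) and eaf1 (0.65, SE 0.13) moved in opposite directions. The exosome and RNA elimination group had 9 of 28 higher and 7 lower (32.1% and 25%, against 27.4% and 35.1% of all genes). Splicing had 26 of 84 higher and 22 lower; this group sat at 0.02, -0.05 and 0.28 in libraries 1, 2 and 3, and without library 3 it had 23 higher and 27 lower calls. The proteasome had 15 of 34 lower and 9 higher (44.1% and 26.5%, against 35.1% and 27.4% of all genes), none at 2-fold.

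In sterol synthesis and its regulator Sre1, 8 of 26 were lower and 5 higher (30.8% and 19.2%). At the low end were the heme synthesis gene hem13 (-0.75, SE 0.07) and the desaturase gene ole1 (-0.55), and at the high end erg32 (0.97, SE 0.11) and erg2 (0.70). In fatty acid and sphingolipid synthesis 8 of 17 were lower and 1 higher (47.1% and 5.88%, against 35.1% and 27.4% of all genes). The largest fall was that of the elongase gene elo2 (-0.70, SE 0.10). Under upper-quartile scaling 4 were lower and 4 higher. Flocculins and their regulators had 6 of 20 lower and 2 higher. Of the adhesins, pfl6, at a low level, fell from 0.837, 0.817 and 0.364 CPM in WT to 0.182, 0.206 and 0.276 CPM in asp1-D333A (-1.56, SE 0.45, adjusted p 0.0086). With the 6 libraries alone 19 members of this group were tested and none was called at least 2-fold lower. The adhesin gene pfl8 rose (0.71), and the regulator genes adn3 (-0.48) and cbf12 (-0.42) were lower. Ubiquitin ligases had 26 of 72 lower and 16 higher, shares near those of all genes.

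Heterochromatin and telomere genes were called higher in 9 and lower in 10 of 32 (28.1% and 31.2%). These shares are near the 27.4% and 35.1% of all protein-coding genes. The silencing genes ago1 (-0.65), dcr1 (-0.67), clr3 (-0.48) and clr4 (-0.30) were lower, swi6 (0.09) was not called, and the gene of the anti-silencing factor Epe1 fell from 87.3, 77.5 and 82 CPM in WT to 45.7, 47.3 and 48.3 CPM in asp1-D333A (-0.80, SE 0.07, adjusted p 7.3e-07). The Argonaute linker gene stc1 rose (0.75). The telomere-linked helicase genes tlh1 and tlh2, near-identical copies of each other whose shares are uncertain, were the largest rises of the group (4.60 for tlh1 and 4.22 for tlh2), at 5.81 and 4.79 without WT 5. By position, the 120 protein-coding genes closest in order to the ends of chromosomes I and II, 30 per end, held 65 tested genes, of which 16.9% were at least 2-fold higher and 13.8% at least 2-fold lower, against 2.75% and 2.13% of all other genes. This class was chosen after the data were seen, and the rest of its genes did not pass the filter on low counts.

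By product name, protein kinases had 46 of 92 lower and 13 higher (50% and 14.1%, against 35.1% and 27.4% of all genes). The halotolerance kinase gene hal4 fell from 830.5, 816 and 776 CPM in WT to 396, 384 and 407 CPM in asp1-D333A (-1.03, SE 0.06, adjusted p 5e-08). The S6 kinase family gene psk1 fell by 1.02 on the log2 scale (SE 0.06). Transcription factors had 35 of 78 lower and 11 higher (44.9% and 14.1%). Among the rises was atf31, from 4.91, 3.98 and 4.32 CPM in WT to 14.7, 14.8 and 15 CPM in asp1-D333A (1.75, SE 0.12, adjusted p 1.4e-07). Transporters had 74 of 197 higher and 65 lower (37.6% and 33%), and oxidoreductases 38 of 107 higher and 34 lower (35.5% and 31.8%). The short-chain dehydrogenase gene SPCC663.08c rose from 8.59, 7.6 and 8.43 CPM in WT to 31.8, 35.3 and 83.4 CPM in asp1-D333A (2.61, SE 0.38, adjusted p 0.00057) and was highest in library 3. Genes annotated only as uncharacterised proteins were higher in 130 of 313 cases and lower in 62 (41.5% higher and 19.8% lower). They are short, with a median of 1162 nucleotides, and with offsets for length and GC content 83 were higher and 93 lower. The largest rise among them was SPCC737.04, from 12, 9.64 and 8.84 CPM in WT to 100.5, 106 and 90.9 CPM in asp1-D333A (3.29, SE 0.11, adjusted p 3.1e-10).

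Outside the groups, the catechol O-methyltransferase gene cmt2 rose from 2.4, 3.21 and 2.08 CPM in WT to 57.5, 59.2 and 61.5 CPM in asp1-D333A (4.53, SE 0.16, adjusted p 3.1e-10). The gene ddr48 rose from 4.85, 5.31 and 3.95 CPM in WT to 84, 87.7 and 50.2 CPM in asp1-D333A (3.97, SE 0.21, adjusted p 5e-08), with library 3 lowest of the mutant libraries, and SPCC18B5.02c from 3.35, 5.51 and 5.67 CPM in WT to 50.9, 50.5 and 78.7 CPM in asp1-D333A (3.62, SE 0.22, adjusted p 1e-07), with library 3 highest. No mutant value overlapped WT in the 3. Among the falls, the predicted phosphatase gene SPBPB2B2.06c had 17.6, 21 and 18.6 CPM in WT 4, 5 and 6 and 1.59, 1.44 and 4.93 CPM in asp1-D333A 1, 2 and 3 (-2.82, SE 0.35, adjusted p 0.00013); library 3 was nearest to WT, and without it the value was -3.65. The lifespan gene ecl3 fell from 6.36, 5.26 and 7.33 CPM in WT to 1.59, 1.2 and 1.3 CPM in asp1-D333A (-2.21, SE 0.17, adjusted p 2.6e-07), and the transcription factor gene grt1 from 9.82, 8.73 and 7.91 CPM in WT to 1.37, 2.14 and 3.43 CPM in asp1-D333A (-1.91, SE 0.24, adjusted p 1.9e-05). Of the 7 auxotrophy marker genes tested, his3 was higher (0.68), lys1 higher (0.25), his7 lower (-0.39) and leu1 lower, all under 2-fold. 1 of the 2 rises was lost when any 1 WT library was left out.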

How the data were processed

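The deposited table holds raw read counts per feature, made by the authors; the submitters' processing notes name HISAT2 2.1.0, SAMtools, HTSeq 0.10.0, DESeq2 and the ASM294v2 build, without roles. Lines of an identifier listed more than once were summed. Counts of all 9 libraries were fitted in edgeR 4.0.16 (R 4.3.3) with strain means, TMM scaling, filterByExpr with a minimum count of 10 and the robust quasi-likelihood F test; p-values were adjusted by Benjamini-Hochberg over 6147 features. The standard error is the absolute log2 fold change divided by the square root of F. Log2 CPM used a prior count of 2. The script was tested on simulated data. Symbols, products and lengths came from RefSeq and matched 5140 of 5146 identifiers. Near-identical copies (at least 95% identity over at least 100 nucleotides, BLAST 2.17.0) touch 68 tested genes. Annotated lengths are those of whole genes. Some genes of the lists are counted but not reported here by name. No coordinates or sequences are given, since the reference at hand is of another build.

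Genes were described in 52 functional lists, 9 of them by product name or symbol. The lists overlap, so a gene can count in several: ste11 is in those of glucose repression, nitrogen starvation, mating and transcription factors. The members and lists were chosen with earlier results of these data known, so they serve as description only. The text names asp1, aps1, pho1, pho84 and tgp1, in each direction the 10 genes that moved most among those whose groups do not overlap and whose mean count reaches 50, up to 4 called members per list, up to 5 genes per asp1-D333A library farthest from the other 2, and further list members to account for a list. Alternatives were other scalings, DESeq2 1.42.0, no filter, the 6 libraries alone, protein-coding genes alone, leaving out each library, and, chosen after seeing the data, offsets for gene length and GC content.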

Additional observations from a re-analysis of the deposited data

How the results depend on the processing

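The number of protein-coding genes called ranged from 2714 to 3317 when 1 library was left out, and was 3124 with RLE size factors, 3143 with DESeq2, 3114 without the filter, 2976 with the 6 libraries alone, 3131 with protein-coding genes alone and 2975 with offsets for length and GC content. With upper-quartile scaling 2076 genes were called higher, 222 of them at least 2-fold, and 53 were at least 2-fold lower; with total counts 64 were at least 2-fold lower. With upper-quartile scaling the members called lower were 14 in the respiratory chain, 8 among heat shock proteins, 9 in the proteasome, 5 in cell wall synthesis and 5 in heterochromatin, and 40 splicing genes were called higher. With total counts the members called lower were 8 among heat shock proteins, 6 in cell wall synthesis and 6 in heterochromatin. With the offsets 6 cell wall genes were lower and 83 uncharacterised proteins higher. These shifts follow from the scaling, which moves every log2 fold change by about the same amount, and for the offsets the cause was not tested. Calls were followed through these settings for the 196 genes picked by the naming rule. Further list members named to account for a list were not part of this check. None of the 196 that was called reversed direction under any setting. Of the 196 genes, 196 kept their call with RLE size factors, 192 with upper-quartile scaling, 185 with the offsets and 191 to 193 when 1 library was left out. The calls of gpd3 were lost without asp1-D333A 1 or 2 or without WT 5 or 6. No paired analysis was possible because the libraries of the 2 strains share no replicate number. Genes of low count are limited by depth, and 143 were not tested.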

Other observations

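Genes of uracil and uridine recycling, a set chosen after their values were seen, were higher in asp1-D333A. The uracil-regulatable gene urg1 rose from 79.5, 94.4 and 119 CPM in WT to 312, 309.6 and 413 CPM in asp1-D333A (1.82, SE 0.15, adjusted p 4e-06), urg2 rose from 138, 166 and 205 CPM in WT to 469.6, 542 and 681 CPM in asp1-D333A (1.74, SE 0.16, adjusted p 8.6e-06), and urg3, which lies between them, less (0.62, SE 0.06). The uridine hydrolase gene urh1 (1.32, SE 0.11) and the uracil phosphoribosyltransferase gene uck2 (1.22, SE 0.17) rose as well. In all 5 the mutant values lay above WT, with library 3 highest. The uracil permease gene fur4 (-0.18) was not called. The gene dut1, whose enzyme removes dUTP, fell from 69.5, 65.1 and 55.7 CPM in WT to 22.5, 25.3 and 22.1 CPM in asp1-D333A (-1.44, SE 0.10, adjusted p 1.2e-07).

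The Tf2 retrotransposons were likewise looked at after their values were seen. Over 13 elements the summed level was 9.82, 10.6 and 12.9 CPM in WT 4, 5 and 6 and 30.9, 29.9 and 27.7 CPM in asp1-D333A 1, 2 and 3. Of these elements 5 passed the filter on low counts, which can depend on the higher mutant counts, so their calls are not counted here. Since they are near-identical copies, the level of any 1 element is uncertain and only the sum is given. The WT sums came from 176, 208 and 248 counts.

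Further genes outside the groups included ecl1, a lifespan gene of the same family as ecl3, which rose from 57, 56.3 and 63.3 CPM in WT to 317, 334 and 150.4 CPM in asp1-D333A (2.18, SE 0.30, adjusted p 0.00057), while ecl3 fell. The gene lsd90 rose from 37.3, 43.4 and 35.4 CPM in WT to 170.1, 170.4 and 104 CPM in asp1-D333A (1.94, SE 0.17, adjusted p 3.3e-06), and as for ecl1 library 3 was nearest to WT. The mitochondrial transfer RNA endonuclease gene trz2 fell from 95.3, 89.3 and 81.4 CPM in WT to 29.1, 28.4 and 33.3 CPM in asp1-D333A (-1.55, SE 0.09, adjusted p 2e-08), the RNA helicase gene mss116, also mitochondrial, from 237, 229 and 219 CPM in WT to 77.6, 78.5 and 85.5 CPM in asp1-D333A (-1.50, SE 0.06, adjusted p 1.1e-09), and the glyoxylate reductase gene gor1 from 356, 371 and 339 CPM in WT to 129, 127 and 142 CPM in asp1-D333A (-1.42, SE 0.09, adjusted p 5e-08). For these 3 the mutant libraries were close to each other and far below WT.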
